A study of Bos taurus with 12 samples.

Results

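The comparison set bovine blastocysts grown from oocytes of prepubertal heifers against blastocysts grown from oocytes of adult cows. It held all 6 blastocyst arrays of the 12 in the series, 3 for each donor age, and every one of the 24016 probe sets that were not array controls. All animals were Japanese Black cattle. Heifer ovaries were removed by spaying on farms at 9 to 12 months of age, and adult ovaries came from an abattoir. Oocytes of both donors were matured in vitro, fertilised with frozen-thawed semen of a Japanese Black bull and cultured in the same media. Each array held RNA of a pool of 10 expanded blastocysts taken on day 7, before hatching. The other 6 arrays held 8- to 16-cell embryos of the same 2 donor types, taken on day 3 in pools of 50. The age of the cows was not given, and neither was whether the pools of a group shared animals, a bull or a day. The p-values therefore measured the spread between pools, which the fit took mostly from probe sets of like signal level. The source of the ovaries differed together with donor age and cannot be told apart from it.

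A blastocyst is the stage at which the bovine embryo has formed an outer epithelium, the trophectoderm, around a fluid-filled cavity and an inner cell mass. By then the embryo transcribes its own genome, and most of the RNA stored in the oocyte has been degraded. Oocytes of prepubertal heifers are known to give fewer blastocysts in vitro than those of cows. The comparison asked whether the embryos that did reach the blastocyst stage differed in their transcripts.

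The 6 pools carried the transcripts of blastocysts. Of the 9 fixed trophectoderm markers, 6 were measured and 4 of those lay above background on all 6 arrays. Background was set on each array at the highest of 27 probe sets for Bacillus subtilis control transcripts, and ranged from 172 to 282 in signal. KRT18, a keratin of simple epithelia, had signals of 25915, 15656 and 12356 in adult pools and 31999, 13644 and 29790.4 in prepubertal pools. KRT8, its partner keratin, had signals of 7205, 2694 and 2306 in adult and 16213, 16056 and 573 in prepubertal pools. POU5F1, a pluripotency factor, had 727, 2266 and 376 in adult and 3109, 808 and 1206 in prepubertal pools. The donor groups overlapped for each of these 3 genes. SOX2, another pluripotency factor, was not above background on any blastocyst array. The oocyte growth factors GDF9 and BMP15 were not above background on any of them either, and 0 of 6 oocyte markers were above it on all 6. Neither the 4 measured blood markers nor the 5 sperm markers held a member above background on all 6 arrays, and of the 6 cumulus and granulosa markers only the hyaluronan synthase gene HAS2 was.

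No probe set passed the test for a donor difference in blastocysts. With limma on log2(signal + 16), 0 of 24016 probe sets (0.0%) reached an adjusted p of 0.05, and the smallest adjusted p was 0.797. At an unadjusted p of 0.05, 884 probe sets (3.68%) were counted, 583 higher (2.43%) and 301 lower (1.25%) in prepubertal blastocysts. The 3 arrays of one donor lay wholly above the 3 of the other for 2359 probe sets (9.82%), 1451 higher (6.04%) and 908 lower (3.78%) in prepubertal pools. Donor differences are given throughout as prepubertal minus adult on the log2(signal + 16) scale, which understates the change of dim probe sets, and stand with their SE in brackets after the signals. The same fit at the 8- to 16-cell stage counted 5 probe sets (0.0208%) past the adjusted threshold and 2166 (9.02%) at an unadjusted p of 0.05. The fit shares its spread over both stages, and prepubertal 8- to 16-cell replicate 3 had a background of 1664 against 172 to 282 on the blastocyst arrays. Without that array 0 probe sets were called in blastocysts and 1100 had an unadjusted p under 0.05.

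The spread between pools limited what could be seen. The median SD among 3 pools was 1.23 in adult and 1.27 in prepubertal blastocysts, and the median SE of the donor difference was 1.30. A typical 95% interval therefore reached 2.17 to either side of the estimate in the dimmest 25% of probe sets and 2.86 in the brightest 25%. In the brightest 1% of probe sets it reached 1.77, a 3.41-fold change. The fit gave the spread common to probe sets of like signal level 195.66 degrees of freedom, against 8 for a probe set's own arrays. An SE was therefore mostly that of the signal level, also for genes whose own pools lay close together. The whole interval lay within 2 of 0 for 380 probe sets and within 1 of 0 for 3. For the other probe sets the interval still held differences of 4-fold or more. The intervals were not adjusted for the number of probe sets, whereas the calls were. The largest difference, 5.70, had an adjusted p of 0.797 with limma. Changes well above 4-fold may therefore have gone uncalled, also where the interval was narrow.

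Correlations between arrays of different donors overlapped those within a donor. Over the 12008 brighter probe sets, Spearman correlations between arrays ran from 0.505 to 0.558 among adult pools and from 0.429 to 0.547 among prepubertal pools. Between an adult and a prepubertal pool they ran from 0.430 to 0.668. The highest of all, 0.668, joined adult replicate 2 to prepubertal replicate 1. The first principal component, with 24.9% of the variance, placed adult pools at 119.6, 6.99 and 28.3 and prepubertal pools at -0.66, 0.81 and -155.1. The donors did not overlap along it, although its ends were held by adult replicate 1 and prepubertal replicate 3 and the other 4 arrays lay between -0.66 and 28.3. The second, with 22.6%, set prepubertal replicate 2 apart from the other 5.

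The most abundant transcripts lay close together in both donors. TPT1, a translationally controlled protein and the brightest named gene, had signals of 245283, 165366 and 306174 in adult and 185312, 250040.0 and 285063 in prepubertal pools, a difference of 0.03 with a 95% interval of -0.76 to 0.82. The ranges of the donors overlapped. EEF1A1, the elongation factor that brings aminoacyl-tRNA to the ribosome, had 142879, 95839 and 158931 in adult and 96082, 170081 and 241837 in prepubertal pools (0.29, SE 0.52). The other genes among the 10 brightest were CALM, FTH1, HSP90AA1, ACTB, EZR, EIF1AX, PSAP and UBE2E1, with differences between -0.36 for HSP90AA1, a cytosolic chaperone, and for EZR, a linker of membrane and cytoskeleton, and 0.37 for FTH1, ferritin heavy chain. FTH1 was the only one of the 10 whose donor groups did not overlap, at 119601, 103532 and 118671 in adult and 126662, 176999 and 142679 in prepubertal pools. Its 95% interval ran from -1.24 to 1.99. Among the 2507 probe sets above background on all 6 arrays, 1852 (73.9%) differed by less than 1 and 80 (3.19%) by 2 or more. Here 110 lay wholly higher and 194 wholly lower in prepubertal pools, while over all probe sets the wholly higher ones were the more numerous.

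**Figure D1:**
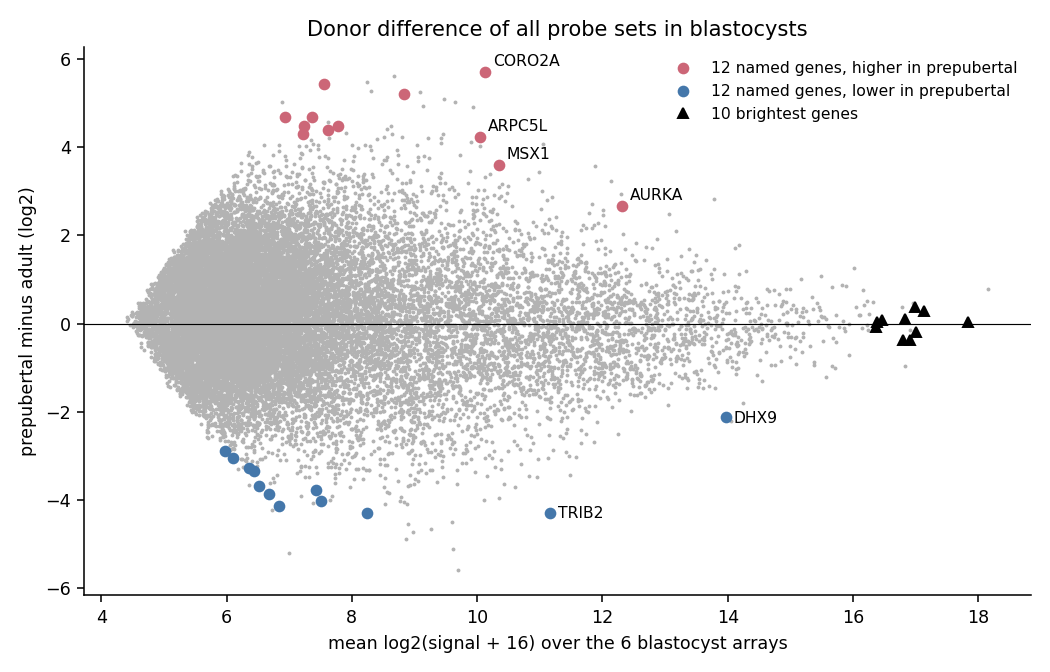
Donor difference (vertical axis, prepubertal minus adult, log2) against the mean log2(signal + 16) of the 6 blastocyst arrays (horizontal axis) for all 24016 probe sets in grey, with the 12 named genes of each direction and the 10 brightest named genes marked. None of the points passed the adjusted test, and the 10 brightest genes lie between -0.36 and 0.37.

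In each direction 12 genes were taken by the smallest unadjusted p among those with non-overlapping groups and a difference of at least 1. They are described as values, since none passed the adjusted test and the groups' separation was part of how they were chosen. Adjusted p-values were 0.797 for the 4 foremost higher genes, CORO2A, AURKA, POGZ and GART, and 0.99965 for each of the other 20. Unadjusted p-values ran from 0.00015 to 0.00858.

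The largest difference was that of CORO2A, a coronin of the family that binds actin filaments. Its signals were 154, 171 and 100.1 in adult pools, none above background, and 3081, 8932 and 18704 in prepubertal pools, all above it. The difference was 5.70, SE 1.48, with a 95% interval of 2.79 to 8.61. In this probe set, measured against the lowest level the adult arrays could show, prepubertal pools were at least 35.2-fold higher. This bound set the mean of the bright group against the mean, over the dim group's arrays, of the higher of the probe set's own signal and the array's background. All bounds below were made in the same way. They allow for the array background but not for the spread between pools, so they are not confidence limits. The named CORO2A probe set reached an adjusted p of 0.0428 when the 6 blastocyst arrays were fitted without the 8- to 16-cell arrays. Its adjusted p ran up to 0.99998 over the other alternatives. Another CORO2A probe set went the other way, with 137, 1781 and 2142 in adult and 1557, 403 and 23.6 in prepubertal pools. Its difference was -1.50, with 2 adult pools above background. The remaining CORO2A probe set differed by 1.14. The donor groups overlapped in both of these.

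ARPC5L, a subunit of the Arp2/3 complex that nucleates branched actin, had signals of 6.14, 632 and 985 in adult and 4482, 4381 and 4923 in prepubertal pools (4.24, SE 1.42). The prepubertal pools lay close together, and the adult pools were spread from background upward.

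AURKA, the Aurora A kinase of centrosomes and the mitotic spindle, was the one gene named as higher that lay above background on all 6 arrays. Its signals were 2451, 876 and 3679 in adult and 14216, 6037 and 24597 in prepubertal pools. The lowest prepubertal pool lay above the highest adult pool, and the difference was 2.68, SE 0.71, with an interval of 1.27 to 4.08. A second AURKA probe set went the other way, with 1902, 5366 and 5623 in adult and 4738, 8.89 and 776 in prepubertal pools. The donor groups overlapped in that probe set.

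GART, the enzyme with 3 activities in purine synthesis, had signals of 175, 41.6 and 21.3 in adult and 3479, 1246 and 4779.7 in prepubertal pools (5.22, SE 1.42). No adult pool and every prepubertal pool was above background, so prepubertal pools were at least 12.1-fold higher. A second GART probe set overlapped between the donors, with 2 adult pools above background and a difference of 1.77.

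POGZ, MED4, MSX1, NSMCE1 and AKAP8 act in the nucleus. POGZ, a zinc finger protein of heterochromatin, had signals of 3.71, 14.03 and 23.4 in adult and 172, 3763 and 2615 in prepubertal pools (5.43, SE 1.47), with 2 of 3 prepubertal pools above background. MED4, a subunit of the Mediator complex that links transcription factors to RNA polymerase II, had 6.26, 11.9 and 38.9 in adult and 696, 568 and 1373 in prepubertal pools (4.68, SE 1.40, at least 3.58-fold higher). MSX1, a homeobox transcription factor, had 1989, 728 and 19.5 in adult and 3271, 4638 and 6101 in prepubertal pools (3.60, SE 1.12). Among the named probe sets of these 3, only that of MSX1 was above background in any adult pool, in 2 of 3. NSMCE1, a subunit of the SMC5/6 complex of DNA repair, had 5.16, 61.6 and 7.10 in adult and 1463, 237 and 766 in prepubertal pools (4.31, SE 1.32, at least 2.82-fold higher). AKAP8, a nuclear anchor of protein kinase A, had 3.99, 189.9 and 8.11 in adult and 397, 4303 and 606 in prepubertal pools (4.48, SE 1.37, at least 4.44-fold higher). In both probe sets, the adult pools were at background and the prepubertal pools differed widely among themselves. A second MED4 probe set went the other way, with 967, 748 and 809 in adult and 881, 132 and 40.1 in prepubertal pools (-2.13). That of AKAP8 had 1428, 3619 and 253 in adult pools and differed by 0.03. Other probe sets of POGZ differed by -0.05, 0.39 and -0.95 and that of MSX1 by -0.86. All of these other probe sets overlapped between the donors.

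The remaining genes of the higher group were dim in adult pools. UXT, a small chaperone of the prefoldin type, had signals of 8.57, 4.84 and 10.7 in adult and 484, 321 and 1376 in prepubertal pools (4.69, SE 1.51, at least 2.62-fold higher). VPS26C, which sorts membrane proteins out of endosomes, had 109, 6.91 and 11.2 in adult and 651, 582 and 1815 in prepubertal pools (4.40, SE 1.42, at least 3.87-fold higher). FBXO34, an F-box protein, had 25.7, 11.3 and 12.2 in adult and 2248, 504 and 291 in prepubertal pools (4.49, SE 1.48, at least 3.03-fold higher). In 9 of the 12 genes no adult pool was above background.

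DHX9, a helicase that unwinds RNA and DNA, was the only gene named as lower in prepubertal pools that was above background on all 6 arrays. Its signals were 59419, 24534 and 25522 in adult and 11883, 10636 and 3615 in prepubertal pools. Every prepubertal pool lay below the lowest adult pool, and the difference was -2.11, SE 0.76, with a 95% interval of -3.60 to -0.62. TRIB2, a pseudokinase that brings proteins to ubiquitination, had 9839.9, 13625 and 7746 in adult and 2683, 1705 and 14.5 in prepubertal pools (-4.28, SE 1.50). The prepubertal pools of TRIB2 did not agree among themselves, since 2 were well above background and 1 was at it. TBL1XR1, a subunit of the NCoR and SMRT corepressor complexes, had 1128, 2033 and 1006 in adult and 528, 6.79 and 9.88 in prepubertal pools (-4.29, SE 1.40), again with 1 prepubertal pool apart from the other 2.

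SNX6, NBEAL1, NEBL and ARHGAP1, which act in membrane traffic and the cytoskeleton, were not above background in any prepubertal pool. SNX6, a sorting nexin of the retromer pathway, had signals of 1336, 678 and 409 in adult and 115, 11.1 and 9.79 in prepubertal pools (-4.03, SE 1.45, at least 3.51-fold lower). NBEAL1, a neurobeachin-like protein, had 553, 1329.8 and 318 in adult and 3.91, 23.8 and 109 in prepubertal pools (-3.78, SE 1.42, at least 3.02-fold lower). NEBL, the actin-binding protein nebulette, had 1311, 152 and 475 in adult and 2.30, 9.32 and 27.1 in prepubertal pools (-4.14, SE 1.35), with 2 of 3 adult pools above background. ARHGAP1, which switches off the small GTPase CDC42, had 77.3, 1257 and 280.4 in adult and 13.96, 3.73 and 11.9 in prepubertal pools (-3.69, SE 1.39), with 1 of 3 adult pools above it.

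In 5 further lower genes 0 to 2 of the 3 adult pools were above background. The zinc finger gene ZNF181 had 196, 1172 and 220.0 in adult and 3.03, 6.53 and 29.8 in prepubertal pools (-3.85, SE 1.16), with 2 of 3 adult pools above background. FRRS1, a ferric reductase, had 200.1, 157 and 540.1 in adult and 15.2, 6.57 and 12.1 in prepubertal pools (-3.34, SE 1.24), also with 2 adult pools above it. UBA6, an enzyme that activates ubiquitin, had 106, 179 and 680.2 in adult and 3.53, 12.02 and 17.8 in prepubertal pools (-3.27, SE 1.21), with 1 adult pool above it. IL7, a cytokine, had 908, 117 and 25.1 in adult and 1.78, 4.94 and 17.9 in prepubertal pools (-2.88, SE 1.06), with 1 above it. PRKCA, protein kinase C alpha, had 91.1, 223 and 279 in adult and 4.83, 7.92 and 11.3 in prepubertal pools (-3.04, SE 1.12) and was not above background on any blastocyst array.

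**Figure D2:**
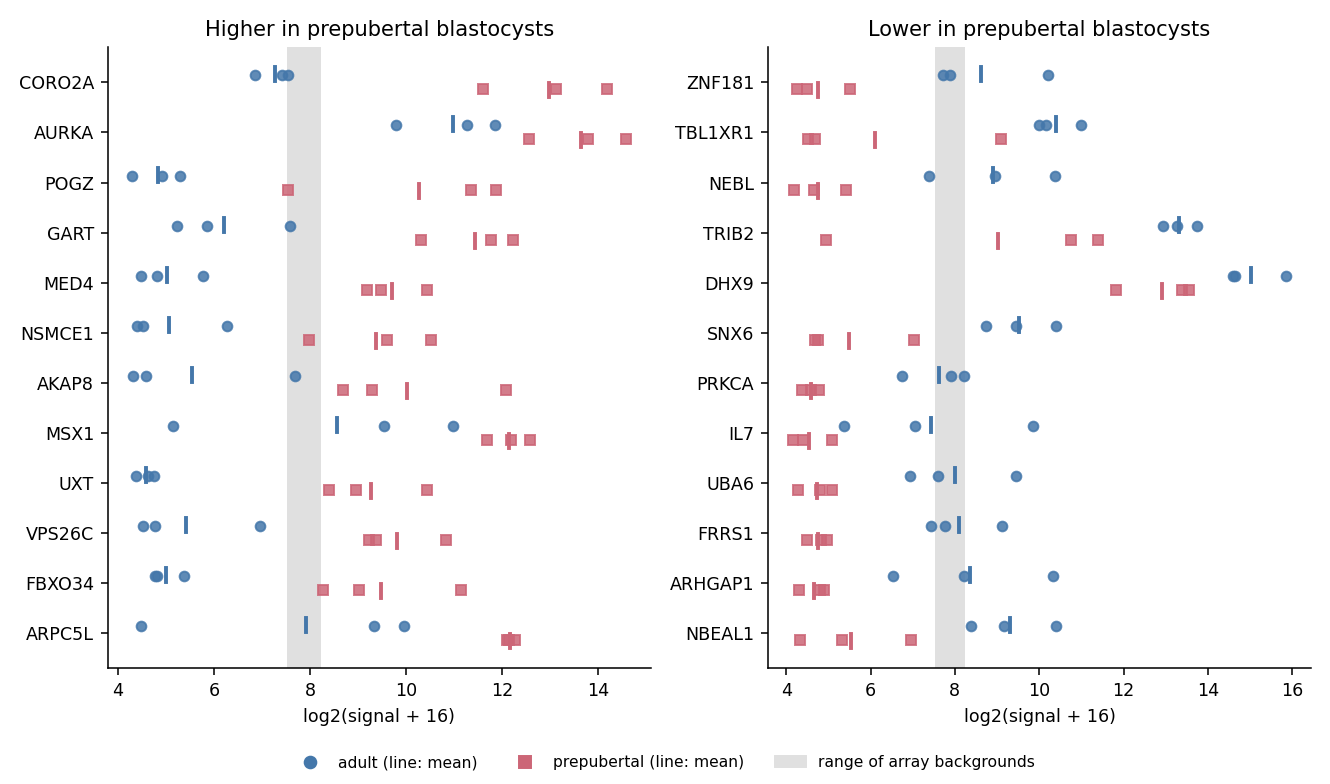
Signal of each of the 6 blastocyst pools (horizontal axis, log2(signal + 16)) for the 12 genes named as higher (left) and the 12 named as lower (right) in prepubertal blastocysts, with adult pools as circles, prepubertal pools as squares, group means as vertical lines and the range of the 6 array backgrounds as a grey band. In 9 genes on the left every adult pool, and in 9 on the right every prepubertal pool, lay at or below its own array's background.

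Other probe sets of the same genes gave little repetition of these patterns. Of the 24 genes, 15 had another probe set, 22 in all. Of these 22, 10 had the same sign of difference and 0 had non-overlapping groups in the same direction. Statements above on background hold for the named probe sets, and other probe sets of some of these genes were above it.

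At the 8- to 16-cell stage, 6 of the 24 genes had the same sign of donor difference as in blastocysts and 18 the opposite sign. Most of these earlier differences did not separate the donors. Over all 24016 probe sets 47.1% had opposite signs at the 2 stages, and where the groups were non-overlapping at both stages 179 had the same direction and 114 the opposite. AURKA was among the 6, with signals of 134793, 111308 and 218578 in adult and 171736, 187052 and 531648 in prepubertal 8- to 16-cell pools (0.79). Each of these values was above all the blastocyst values of AURKA. In GART, MED4 and VPS26C the donor groups were non-overlapping at both stages, in opposite directions. GART had 5216, 9686 and 6109 in adult and 2576, 2580.0 and 118 in prepubertal 8- to 16-cell pools (-2.81), against the higher prepubertal values at the blastocyst stage.

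The difference between the 2 stages was itself tested, and no probe set passed. With limma, 0 of 24016 (0.0%) reached an adjusted p of 0.05, the smallest adjusted p was 0.241, and 1307 (5.44%) had an unadjusted p under 0.05. The 6 genes with the smallest p were DYNLT3, STK38, SF3A2, GART, FASTKD2 and COIL. DYNLT3, a light chain of the dynein motor, had signals of 3974, 55.04 and 2346 in adult and 918, 105 and 210.3 in prepubertal blastocysts. At the 8- to 16-cell stage it had 163, 107 and 9.14 in adult and 9600.2, 5551 and 93738 in prepubertal pools, so that the donors differed by 7.70 there and by -1.57 in blastocysts. The donor difference in blastocysts minus that at the earlier stage was -9.27 (SE 2.09, adjusted p = 0.241). DYNLT3 passed the threshold, at an adjusted p of 0.0174 and a difference of -11.08, when adult blastocyst replicate 2 was left out, and its adjusted p ran up to 0.895 over the other alternatives. STK38, a kinase of the NDR family, had 204, 1962 and 248 in adult and 585, 2783 and 3630.0 in prepubertal blastocysts, and its difference between stages was 8.52 (SE 2.05, adjusted p = 0.251). SF3A2, a subunit of the U2 particle of the spliceosome, had 3.56, 949 and 193 in adult and 7695, 20996 and 167 in prepubertal blastocysts, and its difference between stages was 8.93 (SE 2.16, adjusted p = 0.251). For STK38 and SF3A2 the donor groups overlapped in blastocysts.

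**Figure D3:**
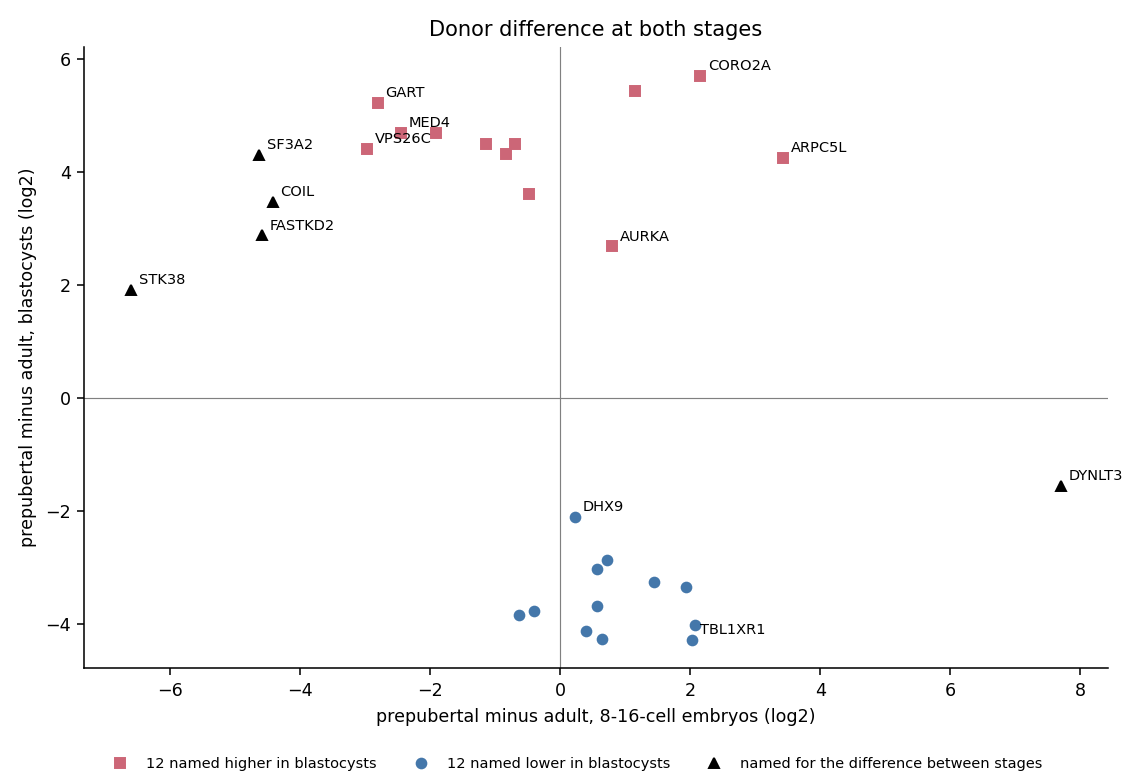
Donor difference (prepubertal minus adult, log2) at the 8- to 16-cell stage (horizontal axis) and in blastocysts (vertical axis) for the 24 genes named in blastocysts and for the genes named for the difference between stages. Of the 24, the 6 in the upper right and lower left have the same sign at both stages, and the other 18 lie in the opposite quadrants.

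Gene lists were read by their counts and medians beside those of all genes, with 1 probe set for each gene. Over 8943 genes the median donor difference was 0.18, and 5018 genes (56.1%) lay above 0. At an unadjusted p of 0.05, 244 genes (2.73%) were higher and 103 (1.15%) lower in prepubertal blastocysts. Groups did not overlap for 576 genes (6.44%) in the higher and 343 (3.84%) in the lower direction. No member of any of the 28 lists passed the adjusted test. Other probe sets of list members repeated few of the patterns below. Of the members that were non-overlapping or had an unadjusted p under 0.05, 33 had 48 other probe sets, of which 25 had the same sign, 4 were non-overlapping in the same direction and 4 in the opposite one. List medians are given below after subtraction of the median of all genes.

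Cytosolic ribosomal proteins, the protein part of the ribosome, had the highest list median. Of 64 measured, 56 (87.5%) lay above 0, and the list median exceeded that of all genes by 0.58. With any 1 blastocyst array left out it exceeded it by 0.41 to 0.76, and by 0.83 after quantile normalization. Groups did not overlap for 12 members in the higher direction (18.8%) and 1 in the lower (1.56%), beside 6.44% and 3.84% over all genes. At an unadjusted p of 0.05, 4 members were counted as higher and 0 as lower. RPS2, a protein of the small subunit, had 647, 665 and 411 in adult and 5001, 1943 and 17993 in prepubertal pools (3.28, SE 1.43, unadjusted p = 0.0226). RPL21, of the large subunit, had 20.7, 706 and 1697 in adult and 2077, 2695 and 3125 in prepubertal pools (2.87, SE 1.15, unadjusted p = 0.0136), and its second probe set was also non-overlapping, at 6094, 3969 and 1480 against 15550.2, 9149 and 6453. RPS19 had 5.10, 6.28 and 11.3 in adult and 189.7, 300.2 and 350.0 in prepubertal pools (3.62, SE 1.48, unadjusted p = 0.0152). Its other probe set overlapped between the donors, with a difference of 0.27. RPS19 was at background in every adult pool, while RPS2 was above background on all 6 arrays. RPS18, among the brighter members, had 46835, 27227 and 62013 in adult and 82944, 76271 and 76619 in prepubertal pools (0.87, SE 0.82), and RPL23 had 52937, 23459 and 47416 in adult and 68285, 76454 and 63396 in prepubertal pools (0.83, SE 0.81). RPL26 was the non-overlapping member in the other direction, with 38899.8, 15130.3 and 16758 in adult and 12322, 8480.1 and 9768 in prepubertal pools (-1.09, SE 0.92). Its other probe set overlapped, with a difference of 0.24. Processed copies of ribosomal protein genes are common in mammalian genomes, and a probe set may not tell them from the parent gene. RACK1, a scaffold protein of the small ribosomal subunit and not on the list, was chosen after its values were seen. It had 8870.1, 4919 and 3305 in adult and 26088, 50937 and 39716 in prepubertal pools, a difference of 2.83. Its adjusted p was 0.99965 with all 12 arrays and 0.0458 with the blastocyst arrays alone, the lowest of the alternatives, which ran up to 1.0.

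The mitochondrial lists also had medians above that of all genes. So did the blood cell list, by 0.37, with 10 of 19 members at background in both donors. Oxidative phosphorylation, the respiratory chain and ATP synthase, exceeded all genes by 0.33 (0.24 to 0.62 with 1 array left out), with 56 of 77 members above 0. Its 11 non-overlapping members (14.3%) were all higher in prepubertal pools, beside 6.44% wholly higher over all genes. UQCRH, a subunit of complex III, had 21864, 22398 and 24207 in adult and 39540.1, 33740.1 and 36859 in prepubertal pools (0.68, SE 1.08). Its pools lay close together within each donor. SDHA, the catalytic subunit of complex II, had 374, 2094 and 887 in adult and 3735, 6829.7 and 2939.9 in prepubertal pools (2.22, SE 1.49). NDUFA7, of complex I, had 99.2, 163 and 19.3 in adult and 815, 1669 and 383 in prepubertal pools (3.20, SE 1.31, unadjusted p = 0.0155), with no adult pool above background. Another subunit of complex I, NDUFB1, had 261, 9664 and 2204 in adult and 17553, 4457 and 34266 in prepubertal pools (2.94, SE 1.45), and its groups overlapped. The 66 mitochondrial ribosomal proteins exceeded all genes by 0.39, a value that ran from -0.11 to 0.73 with 1 array left out and lay below 0 without prepubertal replicate 1. Groups did not overlap for 4 members in the higher (6.06%) and 2 in the lower direction (3.03%). These shares were near the 6.44% and 3.84% over all genes. Among these members MRPL37 had 451, 662 and 18.6 in adult and 837, 4875 and 1628 in prepubertal pools. MRPL49 had 218, 377 and 112 in adult and 14.3, 6.26 and 12.7 in prepubertal pools.

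Genes of heat shock and the unfolded protein response, which fold proteins in the cytosol, mitochondria and endoplasmic reticulum, lay on the other side. The list median was -0.52 relative to all genes (-0.70 to -0.26 with 1 array left out), and 20 of 35 members lay below 0. After quantile normalization it was -0.39 relative to all genes. Without subtraction of the median of all genes it was -0.34. Among the 2507 probe sets above background on all blastocyst arrays, the median difference was -0.08. Of these, 110 lay wholly higher and 194 wholly lower in prepubertal pools. The part of signal level in the list median was not tested. Groups did not overlap for 5 members in the lower (14.3%) and 1 in the higher direction (2.86%), beside 3.84% and 6.44% over all genes. HSPD1, the mitochondrial chaperonin, had 74121, 73806 and 67954 in adult and 34762, 43931 and 33793 in prepubertal pools (-0.95, SE 0.99). HSPA5, the major chaperone of the endoplasmic reticulum, had 33334, 27378 and 33534 in adult and 21676, 15776 and 15749 in prepubertal pools (-0.83, SE 0.85). In both, the pools of a donor lay close together and the donors were separate. A second bright probe set of HSPA5 overlapped between the donors, at 18885, 8584 and 3075 in adult and 5959, 6743 and 9226 in prepubertal pools, a difference of -0.14. HSPA9, the mitochondrial Hsp70, had 12004, 10187 and 8990.4 in adult and 7659, 5233 and 5006 in prepubertal pools (-0.82, SE 1.14), and its other probe set differed by 0.01. CANX, the membrane chaperone calnexin, had 50431, 37587 and 53128 in adult and 21739, 34396 and 36141 in prepubertal pools (-0.63, SE 1.02), and 2 other bright probe sets of CANX overlapped between the donors, with differences of -0.29 and -0.52. DNAJB9, a cochaperone of the endoplasmic reticulum, had 2182, 2916 and 5123 in adult and 1901, 1121 and 655 in prepubertal pools (-1.50, SE 1.24, unadjusted p = 0.229). DNAJB6 was the member in the other direction, with 2251, 3312 and 5062 in adult and 6242, 5621 and 5312 in prepubertal pools (0.76, SE 1.15). HSPA1A, the heat-inducible Hsp70, overlapped between the donors, at 14.03, 3275 and 3404 in adult and 4144, 5720.1 and 1788 in prepubertal pools.

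**Figure D4:**
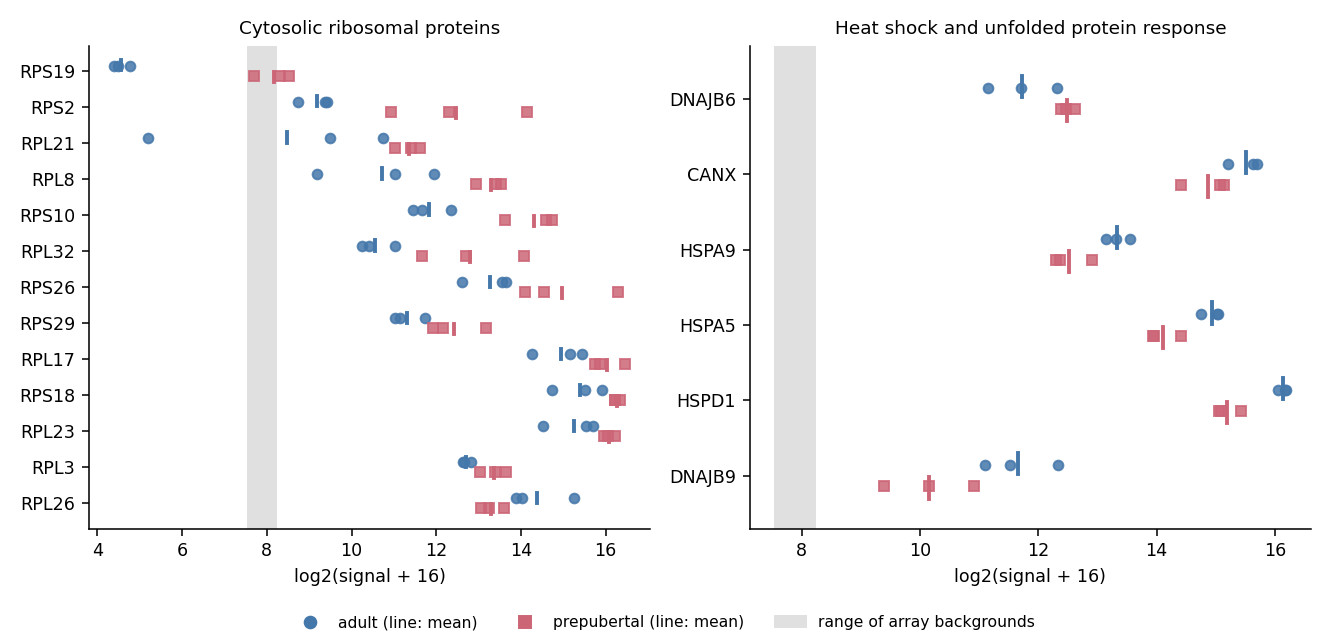
Signal of each of the 6 blastocyst pools (horizontal axis, log2(signal + 16)) for the members with non-overlapping donor groups among cytosolic ribosomal proteins (left) and heat shock and unfolded protein response genes (right), with adult pools as circles, prepubertal pools as squares and group means as lines. Prepubertal pools are higher for 12 of 13 ribosomal members and lower for 5 of 6 chaperone members shown, and none passed the adjusted test.

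Trophectoderm genes had a list median 0.28 above that of all genes, which ran from -0.05 to 0.64 with 1 array left out and lay below 0 without prepubertal replicate 1. Here 4 of 21 members were non-overlapping, all higher in prepubertal pools. CLDN4, a tight junction claudin, had 83.00, 339 and 303 in adult and 1856, 482 and 1187 in prepubertal pools (2.22, SE 1.43). KRT19, a keratin, had 1092, 3262 and 592 in adult and 6859, 5689.6 and 3450.5 in prepubertal pools (1.98, SE 1.48). CLDN6, another claudin, had 3947, 11522 and 10734 in adult and 29394, 16229 and 13421 in prepubertal pools (1.24, SE 1.43). The fourth, ANXA2, a membrane-binding annexin, had 7426, 9438 and 6039 in adult and 12798, 18417 and 14053 in prepubertal pools (0.99, SE 1.42). The summed signal of the 6 measured trophectoderm markers ran from 18076 to 47560.3 in adult and from 37229 to 77159 in prepubertal pools. The share of trophectoderm cells was not measured, and in pooled embryos fewer cells of a type and less RNA per cell cannot be told apart.

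Genes the trophectoderm uses to signal to the mother lay lower in the order of medians, at -0.55 (-0.98 to -0.35 with 1 array left out), with 0 of 19 members non-overlapping. IFNT2, interferon tau, the pregnancy recognition signal of ruminants, had 231, 2349.9 and 7991 in adult and 3292, 1107 and 17.00 in prepubertal pools (-1.75, SE 1.48). Each donor spanned more than its difference from the other. PTGS2, a prostaglandin synthase, had 17529, 10347 and 6649.6 in adult and 5245, 5763 and 8304 in prepubertal pools (-0.75, SE 1.46). PAG2, a pregnancy-associated glycoprotein, had 3841, 322 and 702 in adult and 1777, 63.01 and 8.44 in prepubertal pools (-2.69, SE 1.48), and SSLP1 had 3539, 193 and 1026 in adult and 7606, 1528 and 3952 in prepubertal pools (1.97, SE 1.48).

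Transcripts of the oocyte had the lowest list median, -0.85 (-1.50 to -0.27 with 1 array left out), over 11 measured genes of which 4 were at background in both donors. Of the 11, 3 were wholly lower (27.3%) and 1 wholly higher (9.09%) in prepubertal pools, and 4 lay above 0. The shares over all genes were 3.84% and 6.44%. ZP3, a zona pellucida protein, had 204, 119 and 261 in adult and 84.3, 11.5 and 10.8 in prepubertal pools, and BMP15 had 187, 125 and 34.2 in adult and 4.53, 7.05 and 13.6 in prepubertal pools. Both were non-overlapping at levels around or under background, with 1 adult value of ZP3 above it and none of BMP15. A second probe set of BMP15 overlapped, with a difference of 0.27. KIT, a receptor tyrosine kinase, was bright, at 24566, 14088 and 19990.1 in adult and 7514, 9051 and 6070.3 in prepubertal pools (-1.35, SE 1.05). Its 3 other probe sets had differences of 0.24 to 0.68, with overlapping groups. KPNA7, a nuclear import receptor, was the wholly higher member, at 7.70, 8.33 and 28.9 in adult and 48.9, 116 and 298 in prepubertal pools (2.23, SE 1.38). OOEP, of the subcortical maternal complex, had 12.05, 898 and 27.8 in adult and 799, 272 and 1296 in prepubertal pools (2.70, SE 1.44), with overlapping groups.

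Genes of cells that could accompany an embryo were counted in the same way. Of 28 cumulus and granulosa genes, 12 were at background in both donors. Of the 28, 3 (10.7%) were non-overlapping, all lower in prepubertal pools, beside 3.84% wholly lower over all genes. These were the steroidogenic genes STAR, with 294, 842 and 241 in adult and 156, 7.09 and 64.2 in prepubertal pools, and NR5A1, with 152, 216 and 155 and 4.04, 14.5 and 54.5, and the matrix gene PTX3, with 73.7, 86.8 and 99.9 and 56.5, 8.05 and 9.20. The 3 other probe sets of NR5A1 overlapped, with differences of -1.14 to 1.25. HAS2, with 951, 2181 and 2746 in adult and 1423, 1179 and 463 in prepubertal pools, and THBS1, the matrix protein thrombospondin, were above background on all 6 arrays, and both overlapped. The summed signal of the 6 defining cumulus markers ran from 1184 to 3550.4 in adult and from 1255 to 1618 in prepubertal pools. Of 19 blood cell genes, 10 were at background in both donors. Of the 19, 3 (15.8%) were non-overlapping, all higher in prepubertal pools, beside 6.44% wholly higher over all genes. These were ALAS2, S100A9 and CD68, with a highest signal of 341 on any array. The 4 measured blood markers summed to 229.7 to 422 in adult and 86.2 to 258 in prepubertal pools. None of 14 sperm genes was non-overlapping, ODF2 was above background on all 6 arrays, and the 5 sperm markers summed to 216 to 399.8 in adult and 241 to 1221 in prepubertal pools. The part of such cells in the oocyte and blood lists' values was not tested.

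Inner cell mass and primitive endoderm genes showed no common direction. KLF4, a pluripotency factor, had 38024, 37946 and 43319.8 in adult and 14886, 38128 and 18577 in prepubertal pools (-0.86, SE 0.56), and the groups overlapped through prepubertal replicate 2. IL6R, a cytokine receptor, had 5833, 756 and 679.7 in adult and 28.4, 910.1 and 29.7 in prepubertal pools (-3.57, SE 1.44), while its second probe set had the opposite sign, with a difference of 1.48. Both probe sets overlapped between the donors. APOA1, an apolipoprotein, had 56.1, 35.1 and 278 in adult and 297, 371 and 432 in prepubertal pools (1.88, SE 1.37). The pluripotency list median was -0.09 over 7 measured genes, and that of primitive endoderm 0.16 over 16.

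Of 32 genes of the blastocoel list, 3 (9.38%) were wholly higher and 0 wholly lower in prepubertal pools, beside 6.44% and 3.84% over all genes. ATP1B1, a subunit of the sodium pump that fills the blastocoel, had 8644, 625 and 197 in adult and 2769, 1184 and 3848 in prepubertal pools (1.15, SE 1.13), with overlapping groups. The pump's other beta subunit gene on the list, ATP1B2, had 74.6, 21.9 and 116 in adult and 591, 169 and 616 in prepubertal pools (2.43, SE 1.36). CDH1, the adhesion protein E-cadherin, had 44286, 20674 and 15513 in adult and 9068, 20246 and 23609 in prepubertal pools (-0.57, SE 1.04). Of 20 genes of hatching, 2 (10.0%) were wholly higher in prepubertal pools, beside 6.44% over all genes. These were the protease PRSS12 and the metalloproteinase inhibitor TIMP2, and no member was wholly lower. TIMP2 had 4.94, 513 and 305 in adult and 2491, 654 and 1087 in prepubertal pools (3.01, SE 1.42, unadjusted p = 0.0347), and its 2 other probe sets overlapped, with differences of 0.18 and 0.55. TIMP1, also an inhibitor of matrix metalloproteinases, had 138, 461 and 24.7 in adult and 6927, 3076 and 336 in prepubertal pools (3.77, SE 1.43, unadjusted p = 0.00921), and its other probe set overlapped, with a difference of 1.19.

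Apoptosis and DNA damage genes had a list median of -0.45 (-0.96 to -0.05 with 1 array left out). Of 29 members, 4 were wholly higher (13.8%) and 1 wholly lower (3.45%) in prepubertal pools, beside 6.44% and 3.84% over all genes. BAK1, which permeabilises the mitochondrial outer membrane in apoptosis, had 5.68, 4.83 and 137 in adult and 1748, 152 and 839 in prepubertal pools (3.95, SE 1.35, unadjusted p = 0.00397). GADD45B, a stress sensor, had 264, 292 and 188 in adult and 2655, 1133 and 3281 in prepubertal pools (3.06, SE 1.39, unadjusted p = 0.029). MDM2, the ubiquitin ligase of p53, was lower, at 202, 192 and 339 in adult and 179, 129.8 and 57.7 in prepubertal pools (-0.98, SE 1.34).

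Antioxidant genes had 6 of 41 members non-overlapping (14.6%), all higher in prepubertal pools, beside 6.44% wholly higher over all genes. The list median was 0.26 (0.20 to 0.48 with 1 array left out). Besides FTH1, ferritin light chain, FTL, had 1370.0, 485 and 1397 in adult and 4318, 3029 and 1814 in prepubertal pools (1.54, SE 1.38). GLRX3, a glutaredoxin, had 902, 674 and 517 in adult and 4058, 1369.5 and 1729.8 in prepubertal pools (1.62, SE 1.42), and its other, dimmer probe set differed by -1.61 with overlapping groups. HMOX1, heme oxygenase, was above background on 1 array only, at 134, 35.3 and 7.80 in adult and 331, 172 and 247 in prepubertal pools. GPX4, which reduces lipid peroxides, had 17.9, 8.19 and 516 in adult and 3585, 851 and 185 in prepubertal pools (3.50, SE 1.38, unadjusted p = 0.0121), and its groups overlapped.

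Sugar metabolism had a list median of 0.24 (0.10 to 0.46 with 1 array left out). Groups did not overlap for 3 of 33 members (9.09%), all higher in prepubertal pools, near the 6.44% wholly higher over all genes. ALDOA, the glycolytic aldolase, had 1499, 1101 and 14.4 in adult and 2666, 4879.6 and 1529 in prepubertal pools (2.87, SE 1.49). GPI, which interconverts glucose and fructose phosphates, had 1893, 2161 and 2284 in adult and 3675, 6829 and 6564 in prepubertal pools (1.37, SE 1.42). GAPDH had 1309, 1039 and 544 in adult and 2189.7, 2840.3 and 1695 in prepubertal pools (1.26, SE 1.48).

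Regulators of chromatin had 3 members wholly higher (7.89%) and 1 wholly lower (2.63%) among 38, with a list median of -0.07. Over all genes these shares were 6.44% and 3.84%. EZH2, the histone methyltransferase of Polycomb, had 2502, 5098 and 270.0 in adult and 5108, 8236 and 7132 in prepubertal pools (2.12, SE 1.21). HDAC1, a histone deacetylase, had 223, 1839 and 2303 in adult and 4020.3, 5012 and 4081 in prepubertal pools (2.11, SE 1.46). SIRT1, a deacetylase that uses NAD, had 6134, 7715 and 7993 in adult and 4791, 2102 and 4679.9 in prepubertal pools, so that every prepubertal pool lay below the adult pools. Its other probe set overlapped, at 1203, 2654 and 389.8 in adult and 3258, 815 and 272 in prepubertal pools, a difference of -0.25. XIST, the RNA that silences an X chromosome in female cells, had 317, 261 and 1655 in adult and 1963, 4561 and 2971 in prepubertal pools (2.49, SE 1.47). Of its 5 other probe sets, 1 was wholly higher and 1 wholly lower in prepubertal pools. The sex of the pooled embryos was not given.

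**Figure D5:**
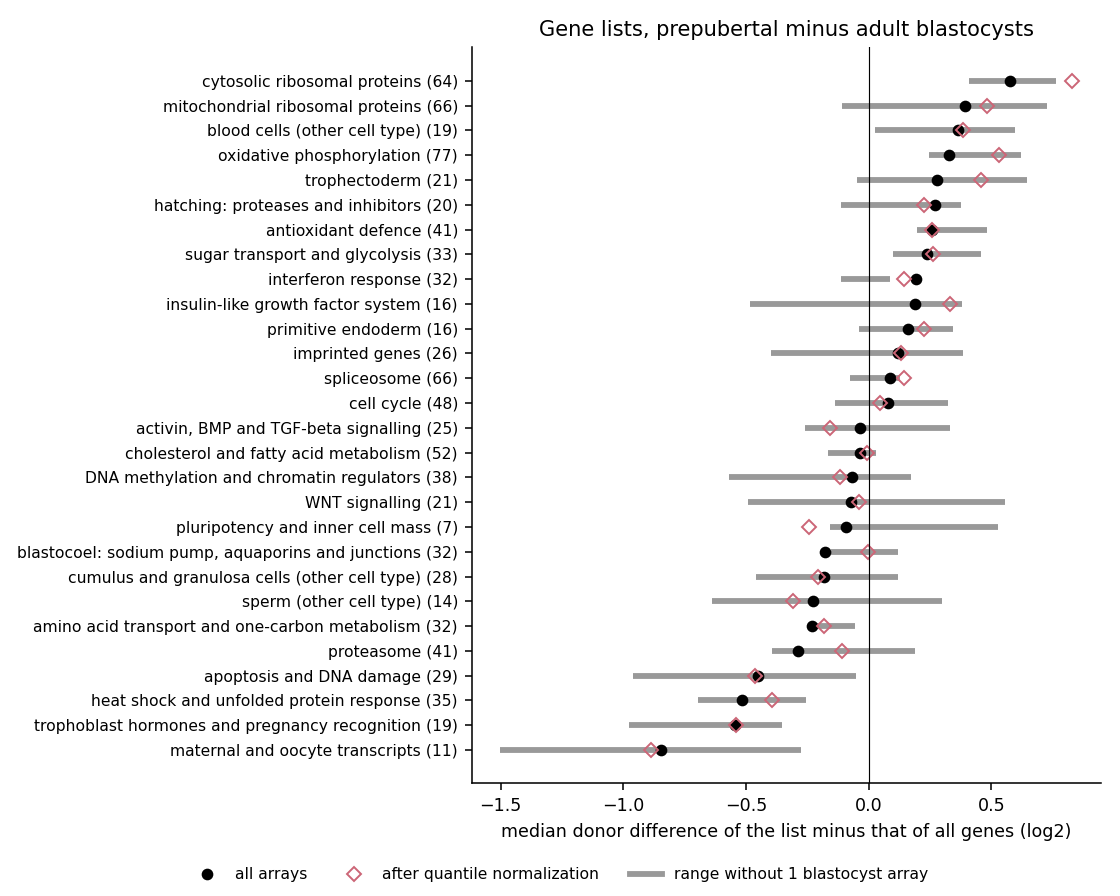
Median donor difference of each of the 28 gene lists minus the median of all genes (horizontal axis, log2, prepubertal minus adult), with the number of measured genes in brackets, for all arrays (filled circles), after quantile normalization (open diamonds) and as the range when 1 of the 6 blastocyst arrays is left out (grey bars). Cytosolic ribosomal proteins lie highest at 0.58 and maternal and oocyte transcripts lowest at -0.85, with 14 lists on each side of 0.

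More probe sets were above background in prepubertal pools. The count was 6224, 7009 and 6093 in adult and 8500, 8129 and 8359 in prepubertal pools, 6442 ± 495 and 8329 ± 187 (SD, n = 3). The difference of 1887 had a two-sided exact permutation p of 0.1, the smallest that 3 against 3 allows, and 0.733 after Benjamini-Hochberg adjustment over 11 array measures. With a fixed signal of 500 in place of the control transcripts, the difference was 303 (exact permutation p = 0.5). With the limit from the control transcripts, 161 probe sets were above background in all prepubertal and no adult pools and 27 in all adult and no prepubertal pools. With the fixed signal these numbers were 63 and 42.

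Array measures of RNA quality differed between pools as well. The ratio of 3' to 5' signal of the bovine actin control, which rises as transcripts shorten, was -0.26, 0.40 and -1.12 in adult and 2.84, 0.09 and 4.15 in prepubertal pools on the log2 scale (exact permutation p = 0.2). That of the GAPDH control was 5.92, 8.02 and 6.19 in adult and 0.12, 9.29 and 8.99 in prepubertal pools (exact permutation p = 1.0), with prepubertal replicate 1 apart from the rest. Hybridization controls differed 1.06-fold (exact permutation p = 0.8). The part of any of these measures in the donor differences was not tested.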

How the data were processed

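Signals were read from the deposited table of linear intensity values of an Affymetrix bovine array. Per the submitters' processing notes the authors made them with MAS5, with no version or setting given in the labels. Per the labels' protocols RNA was amplified with WT-Ovation Pico. Every array had a trimmed mean signal close to 500 (2% trimmed). The table held 24128 probe sets, of which 112 were controls. Of the other 24016, 13292 named 1 gene, 86 several and 10638 none in the platform annotation, and 12986 of them carried a proper symbol for 8943 different genes. Symbols were brought up to date by gene identifier through RefSeq's gene table.

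Values were taken as log2(signal + 16). The 4 group means of the 12 arrays were fitted with limma 3.58.1 in R 4.3.3 (lmFit, eBayes with trend, 8 residual degrees of freedom), and p-values were adjusted by Benjamini-Hochberg over all 24016 probe sets. The fit was tested on simulated data. The number of arrays limits the precision. Single values per array were compared with two-sided exact permutation tests. For genes with several probe sets, the one with the highest mean over 12 arrays stood for the gene in lists.

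Members and gene lists were chosen with earlier results of these data known. Genes were named by rule: with a proper symbol, non-overlapping groups and a brighter group at least at the median level, the 12 largest changes per direction past the threshold, or else, among differences of 1 or more, the smallest unadjusted p. The rule added the 6 smallest p for the difference between stages, the called members and the 3 smallest p of each list, the 10 brightest genes and 13 markers. For lists, members with non-overlapping groups were also described, chosen after their values were seen. Alternatives were other pseudocounts, filters, floors, quantile normalization, array weights, no trend, blastocyst arrays alone, replicate number as a block, and leaving out each array.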

Additional observations from a re-analysis of the deposited data

Results flagged for a closer look

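The donor difference in the number of probe sets above background changed sign between the stages. It was 1887 in blastocysts and -2806 in 8- to 16-cell embryos (prepubertal minus adult, 3 arrays a group), so that the first exceeded the second by 4694. Permuting donor labels within each stage, over all 400 arrangements, gave an exact permutation p of 0.005, the smallest that these arrangements allow. Such a permutation assumes no donor difference at either stage, so a small p does not by itself show that the difference changed. The p-values here were not adjusted over measures. With the second highest control as the background limit the value was 5655 (exact permutation p = 0.01), and with a fixed signal of 500 it was -1177 (exact permutation p = 0.72). Without prepubertal 8- to 16-cell replicate 3, whose background of 1664 was the highest of the 12 arrays, it was 3507 (exact permutation p = 0.01). The backgrounds themselves differed at the earlier stage, with a mean of 207 in adult and 815 in prepubertal 8- to 16-cell pools. The part of background in this difference was not tested.

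In 5 named genes the donor groups were non-overlapping at both stages but in opposite directions, higher in prepubertal blastocysts and lower in prepubertal 8- to 16-cell embryos. The donor difference in blastocysts minus that at the earlier stage was 8.03 for GART, 7.13 for MED4, 7.36 for VPS26C, 7.45 for FASTKD2, an RNA-binding protein of mitochondria, and 7.89 for COIL, the marker protein of Cajal bodies. FASTKD2, COIL and, besides its blastocyst values, GART were named for a small p of this difference, so their opposite directions follow in part from that choice, while MED4 and VPS26C were named from the blastocyst values. None of the 5 passed limma's test of that difference, with adjusted p-values of 0.271, 0.655, 0.598, 0.575 and 0.583 in the same order. Over all probe sets, 114 were non-overlapping at both stages in opposite directions and 179 in the same direction.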

How the results depend on the processing

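No probe set was called for the donor difference in blastocysts under any alternative but one. With the blastocyst arrays alone, limma called 2 probe sets, and both of these 2 were higher in prepubertal pools, CORO2A (adjusted p = 0.0428) and RACK1 (adjusted p = 0.0458). That fit gave every probe set the spread of its signal level. The 0 calls held with pseudocounts of 1 and 64, both filters (the one for probe sets above background on at least 3 blastocyst arrays was chosen after seeing the data), the floor, quantile normalization, array weights, no trend and each array left out. With the replicate number as a block 0 were called and 932 had an unadjusted p under 0.05, with a smallest adjusted p of 0.937. Deviations of same-numbered blastocyst arrays correlated at 0.0028, -0.01001 and 0.038, values that show no pairing by number. With the wide spread between pools, a weak pairing could have been missed. The count at an unadjusted p of 0.05 ran from 298 (probe sets above background on at least 3 blastocyst arrays, 7097 tested) to 1146 (array weights). Calls for the difference between stages ran from 0 to 1 with 1 array left out, 1 each without prepubertal 8- to 16-cell replicate 2, adult blastocyst replicate 2 and prepubertal blastocyst replicate 2. For the 24 named genes, direction and call held in 513 of 514 refits, the exception being CORO2A. The median of all probe sets was 0.16 higher in prepubertal pools, 0.22 with a pseudocount of 1, 0.11 with 64, and -0.0009 after quantile normalization. With 3 pools a group, and many probe sets near background, small differences were not detectable and large ones may have been missed.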

Other observations

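Among lists not described above, cell cycle genes had 5 members wholly higher (10.4%) and 1 wholly lower (2.08%) of 48. Over all genes these shares were 6.44% and 3.84%. The cell cycle median lay 0.08 from that of all genes. CCNB2, a mitotic cyclin, had signals of 692, 648 and 14.6 in adult and 980.0, 1005 and 5989.9 in prepubertal pools (2.91, SE 1.47). The 66 spliceosome genes had a median 0.09 from that of all genes and 2 wholly higher (3.03%) and 2 wholly lower (3.03%) members. HNRNPD, an RNA-binding protein, had 73584, 30955 and 33200.5 in adult and 28073, 23037 and 24833 in prepubertal pools (-0.74, SE 0.64), and the splicing factor U2AF1 had 52.5, 104 and 369 in adult and 2158, 660.4 and 1616 in prepubertal pools (3.19, SE 1.46, unadjusted p = 0.0303). Of 41 proteasome genes, 0 were wholly higher (0.0%) and 2 wholly lower (4.88%). Among them the activator PSME4 had 5279, 7857 and 4626 in adult and 3291, 2782 and 2579 in prepubertal pools. None of these genes passed the adjusted test.

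Signalling lists lay near the median of all genes. WNT signalling differed from it by -0.07, and DVL2, which relays the receptor's signal, had 24.5, 441 and 162 in adult and 3184, 1510.1 and 1408 in prepubertal pools (3.68, SE 1.46, unadjusted p = 0.0123). The activin, BMP and TGF-beta list differed by -0.04, and its signal transducer SMAD2 had 2189, 3575 and 3647 in adult and 1423, 1927 and 680.0 in prepubertal pools (-1.30, SE 1.37). The insulin-like growth factor list differed by 0.19, with IGFBP3, a binding protein, at 857, 178 and 293 in adult and 154, 128 and 31.2 in prepubertal pools (-1.83, SE 1.34). A second IGFBP3 probe set was wholly higher in prepubertal pools, at 23.3, 4.50 and 14.2 in adult and 87.1, 94.4 and 468 in prepubertal pools, a difference of 2.61. The interferon response differed by 0.19, and by -0.11 to 0.08 with 1 array left out. In this list 14 of 32 members were at background in both donors. Its IRF9, a transcription factor, had 13.4, 6.54 and 9.25 in adult and 63.1, 196 and 305 in prepubertal pools (2.78, SE 1.12), and GBP4, a GTPase, had 661, 367 and 449 in adult and 128, 71.2 and 7.67 in prepubertal pools (-2.89, SE 1.43).

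Of 32 genes of amino acid transport and one-carbon metabolism, 1 was wholly higher (3.12%) and 2 wholly lower (6.25%). The shares over all genes were 6.44% and 3.84%. The list median lay -0.23 from that of all genes. SLC1A3, a glutamate transporter, had 2019, 1645 and 1521 in adult and 505, 341 and 12.1 in prepubertal pools (-3.32, SE 1.46, unadjusted p = 0.0243), and AHCY, which hydrolyses S-adenosylhomocysteine, had 3991, 2833 and 3628 in adult and 10138, 5804 and 9253 in prepubertal pools (1.24, SE 1.45). Cholesterol and fatty acid genes differed by -0.04, and INSIG2, a brake on sterol synthesis, had 2722, 430.1 and 4083 in adult and 2567, 5.82 and 25.99 in prepubertal pools (-3.68, SE 1.51). Of its 2 other probe sets 1 was wholly lower, with a difference of -1.75, and 1 overlapped, with -0.22. Imprinted genes differed by 0.12, blastocoel genes by -0.18, hatching genes by 0.27, cumulus and granulosa genes by -0.18, blood cell genes by 0.37 and sperm genes by -0.23. With 1 array left out the blood cell value ran from 0.03 to 0.60, and each of the others ran to both sides of 0. The blastocoel value then ran from -0.15 to 0.12, and after quantile normalization it was -0.0021.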
